A study of Rattus norvegicus with 10 samples.

Results

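The Id genes, Id1, Id2, Id3 and Id4, encode the inhibitors of differentiation, and all 4 were found by symbol among the 23487 genes counted in primary rat cells of the oligodendrocyte (OL) lineage. RNA was sequenced in 10 libraries, 2 in each of 5 groups, all from Sprague-Dawley pups of postnatal days 1 to 3. Cortical mixed glia were shaken to release OL progenitor cells (OPCs), which were then cleared of adherent cells by differential adhesion. OPCs kept with FGF2 and PDGF-AA received either a miR-145-5p inhibitor (anti-miR-145) or a scrambled inhibitor (anti-miR-ctl) and were collected after 24 h. Cells differentiated with triiodothyronine, CNTF and N-acetyl cysteine received a miR-145-5p mimic (miR-145), this mimic with a miR-219 mimic (miR-145+miR-219), or a scrambled mimic (miR-ctl), and were collected after 5 days as OLs. Oligonucleotides were used at 30 nM. Mimics are given by the labels and by the study's account of its results, while its description of sequencing methods names a lentivirus for miR-145, and this conflict is not settled by the files. The titles and descriptions of the 2 miR-145 libraries give miR-145 only, and were followed here, although a further tag of both adds miR-219. The study states that each N is a biological replicate, and defines N for primary cells as cultures of individual mice. The descriptions give these rat libraries an N number within each group. The sources used here do not say which animals or cultures they came from. P-values thus measure the spread between these libraries, which is biological by the study's definition but is not settled by the labels.

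Id proteins hold a helix-loop-helix (HLH) but no basic region that contacts DNA. They pair with E proteins, the common partners of tissue-specific basic HLH (bHLH) factors, and keep them from binding DNA. Id genes are textbook targets of bone morphogenetic protein (BMP) signalling through SMAD factors, and in OPCs Id2 and Id4 are known as brakes on differentiation whose partners include OLIG1 and OLIG2. The treatment was directed at miR-145-5p, shown here because its seed (bases 2 to 8, in capitals) sets which transcripts it pairs with, from RefSeq at chr18:57370033-57370055 of build GRCr8, minus strand.
miR-145-5p: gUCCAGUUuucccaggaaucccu
Sites for this seed in the Id transcripts were not analysed here, nor were levels of the mature miRNA.

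Library totals ran from 33505706 to 42684206 counts. Levels are CPM, counts scaled to library size, after TMM normalization over the 10 libraries, and were not divided by transcript length, so they are compared between groups and not between genes. The labelled cell types were checked by summing marker genes. OL markers (12 genes, Mbp among them) summed to 16148 to 35554 CPM in the 6 OL libraries and to 1128 to 1337 CPM in the 4 OPC libraries. OPC markers (8 of 9 genes with a single gene ID, Pdgfra among them) summed to 4503 to 5563 CPM in OPCs and to 1658 to 2440 CPM in OLs. Astrocyte markers were also abundant in OLs, where all 11 summed to 5494 to 13512 CPM, against 485 to 684 CPM in OPCs. Of these, Gfap, the intermediate filament of astrocytes, alone reached 4173 to 9676 CPM in OLs and 7.80 to 51.8 CPM in OPCs. In such bulk samples, fewer cells of a type and less RNA per cell cannot be told apart.

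Id1 stood at 28.0 and 25.8 CPM in the 2 OPC anti-miR-ctl libraries and at 7.19 and 7.84 CPM with anti-miR-145. In OLs it stood at 37.3 and 26.6 CPM with miR-ctl, 35.9 and 33.4 CPM with miR-145, and 33.0 and 27.5 CPM with both mimics. The anti-miR-145 OPCs were thus apart from all 8 other libraries, and the 3 OL groups and the OPC control followed each other without a gap between neighbours.

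Id2 measured 54.8 and 54.9 CPM in anti-miR-ctl OPCs and 43.7 and 39.9 CPM in anti-miR-145 OPCs. In OLs its levels were 121 and 79.8 CPM with miR-ctl, 170 and 103 CPM with miR-145, and 143 and 84.2 CPM with both mimics. All 6 OL libraries were above all 4 OPC libraries, the 3 OL groups overlapped, and the 2 OPC groups did not.

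Id3 was low in OPCs, with 21.1 and 19.9 CPM in the control and 15.2 and 12.8 CPM with anti-miR-145. It reached 91.9 and 94.6 CPM in miR-ctl OLs, 76.1 and 97.6 CPM in miR-145 OLs, and 96.6 and 116 CPM with both mimics. The step between the lowest OL group mean and the OPC control was 4.24-fold, whereas neighbouring OL groups were 1.07-fold and 1.14-fold apart. The libraries with both mimics were above those with miR-ctl, and the miR-145 libraries overlapped both of these groups.

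Id4 had the lowest OPC levels relative to its OL levels, with 7.96 and 6.68 CPM in control OPCs and 4.25 and 4.48 CPM with anti-miR-145. Its OL levels were 38.5 and 42.2 CPM with miR-ctl, 81.3 and 46.6 CPM with miR-145, and 71.2 and 42.9 CPM with both mimics. In both mimic groups replicate 1 stood well above replicate 2, and all 4 mimic libraries were above the 2 miR-ctl libraries, replicate 2 with both mimics by 42.9 against 42.2 CPM.

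**Figure D1:**
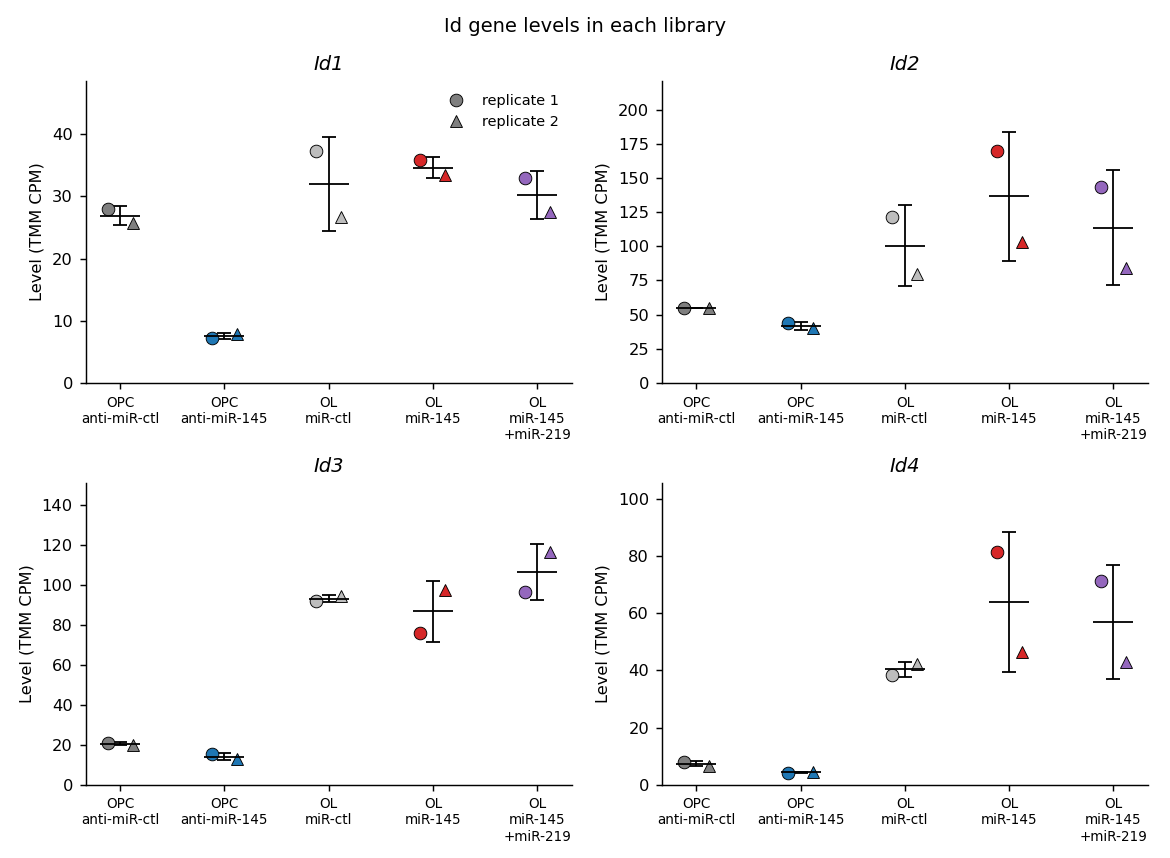
Levels of the 4 Id genes in CPM after TMM normalization (y axis, from 0) in each library of the 5 groups (x axis). Circles and triangles are replicates 1 and 2, horizontal marks are group means and bars are ± SD (n = 2), and each gene is lowest in OPCs given anti-miR-145, with Id1 at 7.19 and 7.84 CPM there.

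Inhibition of miR-145 in OPCs was tested first, as the comparison in which Id genes could be followed 24 h after transfection. All 4 Id genes were lower with anti-miR-145, and their 2 libraries did not overlap the 2 control libraries. Id1 fell most, by 1.85 on the log2 scale (SE 0.11), a 3.61-fold difference (edgeR quasi-likelihood test, Benjamini-Hochberg adjusted p = 8.27e-05). Id4 fell by 0.76 (SE 0.15, edgeR adjusted p = 0.0103), a 1.69-fold difference. Id3 fell by 0.57 (SE 0.12, edgeR adjusted p = 0.0144), and Id2 fell by 0.41 (SE 0.09, edgeR adjusted p = 0.0172), which are 1.48-fold and 1.33-fold differences. Of all 15496 genes tested, 28.1% were called and 16% were called lower, and 68.6% had groups that did not overlap, 32.7% being lower with anti-miR-145. The fall of Id1 was larger in size than the change of 95.9% of the genes tested, and that of Id2 than 64.7%.

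Together the 4 genes gave 112 and 107 CPM in control OPCs and 70.3 and 65.0 CPM with anti-miR-145. As counts were not divided by transcript length, shares in this sum are compared between groups and not between genes. The share of Id1 in this sum was 25.0% and 24.0% in the control and 10.2% and 12.1% with the inhibitor. The intervals of ± 2 SE ran from -2.06 to -1.64 for Id1 and from -1.06 to -0.46 for Id4, the next largest, and did not overlap. The difference between genes was not tested.

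The calls of Id2, Id3 and Id4 depended on single libraries. Without anti-miR-ctl replicate 1, Id1 alone remained called, and edgeR adjusted p was 0.0938 for Id2, 0.0701 for Id3 and 0.0888 for Id4. Without anti-miR-ctl replicate 2, Id2 was not called (edgeR adjusted p = 0.0897). With the spread estimated over all 5 groups, Id1 and Id3 were called, and edgeR adjusted p was 0.433 for Id2 and 0.149 for Id4.

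**Figure D2:**
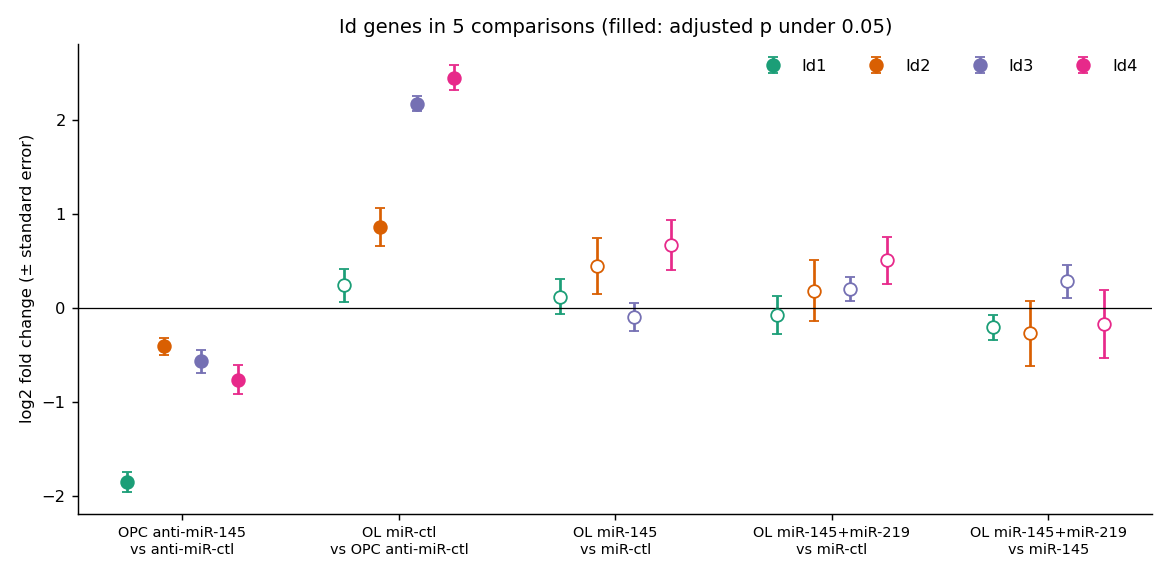
Log2 fold change of each Id gene (y axis) in the 5 comparisons (x axis), with bars of ± 1 standard error and filled points for edgeR adjusted p under 0.05. All 4 genes are filled below 0 with anti-miR-145 in OPCs, Id2, Id3 and Id4 are filled above 0 in OLs against OPCs, and no point is filled among the mimic comparisons. These fits have no term for the replicate number.

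The promoters of the 4 genes are shown as a description, and the part of any motif in their changes was not tested. RefSeq sequence of build GRCr8 is given for the 120 bases before the first annotated base of each gene, with the GC box GGGCGG, in either orientation, in capitals. Id1 lies at chr3:161671405-161671524 on the plus strand, Id2 at chr6:47470996-47471115 on the minus strand, Id3 at chr5:153656133-153656252 on the plus strand and Id4 at chr17:16598294-16598413 on the minus strand.
Id1: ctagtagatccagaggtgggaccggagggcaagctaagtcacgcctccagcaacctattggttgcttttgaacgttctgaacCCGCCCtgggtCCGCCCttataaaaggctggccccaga
Id2: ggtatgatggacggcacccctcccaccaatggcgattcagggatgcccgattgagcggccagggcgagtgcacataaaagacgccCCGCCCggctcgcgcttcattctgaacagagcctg
Id3: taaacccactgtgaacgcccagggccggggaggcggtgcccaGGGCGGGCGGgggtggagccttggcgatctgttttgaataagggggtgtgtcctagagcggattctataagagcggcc
Id4: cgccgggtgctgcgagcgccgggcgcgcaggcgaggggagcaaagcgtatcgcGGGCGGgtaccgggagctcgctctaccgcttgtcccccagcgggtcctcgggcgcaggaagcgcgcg
Id1 and Id3 each hold a pair of GC boxes, overlapping by 2 bases in Id3, and Id2 and Id4 hold 1 each. In windows of 300 bases (250 before and 50 after the start used in the promoter table, which lies 39 bases past the first annotated base for Id1, 38 for Id3 and at it for Id2 and Id4), the GC box occurred in all 4 genes and in 33.1% of the 33469 promoters in the table. The 250 bases before that start were 54.8% to 62.8% G or C, against a median of 51.2% over all promoters. In the same windows the SMAD1/5 palindrome GGCGCC occurred in Id4 and in 11% of promoters, and the SMAD4 site GTCT in Id1, Id2 and Id4 and in 88.8%. The E-box CANNTG occurred in Id1 and Id2 (72.1% of promoters) and the N-box CACNAG, a site bound by Hes factors, in Id2 (43.1%). All motifs were searched on both strands, and a match describes letters and not a bound site. Sequence outside these windows was not searched, so a motif absent from a window may lie elsewhere near the gene.

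The partners of the Id proteins did not move in 1 direction as a set in OPCs. Among the E proteins, Tcf3 rose from 93.8 ± 1.97 to 116 ± 6.02 CPM (SD, n = 2) with anti-miR-145, by 0.29 on the log2 scale (edgeR adjusted p = 0.0422). Tcf12 measured 223 ± 2.27 and 252 ± 40.8 CPM (SD, n = 2), and Tcf4 75.3 ± 3.35 and 80.7 ± 16.0 CPM (SD, n = 2), both overlapping and not called. Of 12 tissue bHLH genes tested, 2 were called higher and 2 lower, with a median log2 fold change of -0.13, against a median of 0.0045 over all genes. By sign alone, 8 of the 12 were lower, like the Id genes, and 4 higher. Atoh8, given below with the BMP targets, was among those called lower. Olig1, a factor of the OL lineage, rose by 0.65 (SE 0.08, edgeR adjusted p = 0.00143) to 2662 ± 7.29 CPM (SD, n = 2), and Olig2, which specifies that lineage, rose by 0.55 (SE 0.08, edgeR adjusted p = 0.00263).

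Hes and Hey genes encode bHLH repressors, many of them targets of Notch. Of 8 such genes tested, with Bhlhe40 and Bhlhe41, 2 fell and 1 rose, with a median of -0.26. Hes5 fell by 1.76 (SE 0.31) from 1.41 ± 0.061 CPM (SD, n = 2), and Hes1 fell by 1.09 (SE 0.20) from 3.01 ± 0.19 CPM (SD, n = 2). Bhlhe40 rose by 0.36 (SE 0.11, edgeR adjusted p = 0.0474). Hes1 and Hes5 were thus lower in the same libraries as the Id genes, at low levels in both groups.

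**Figure D3:**
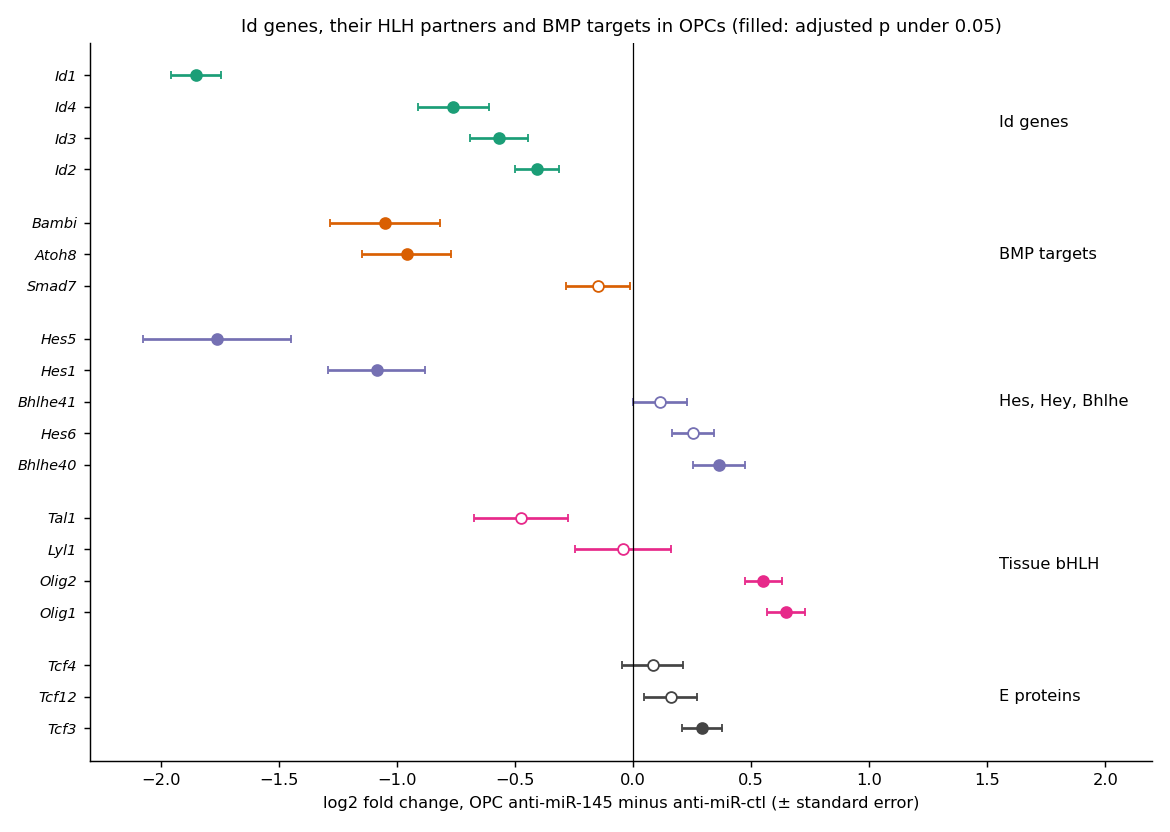
Log2 fold change with ± 1 standard error (x axis) in OPCs, anti-miR-145 against anti-miR-ctl, for the Id genes and for members of 4 other lists (rows) with a mean of at least 1 CPM in either group, filled where edgeR adjusted p was under 0.05. The 4 Id genes, Bambi, Atoh8, Hes5 and Hes1 are filled to the left, and Bhlhe40, Olig2, Olig1 and Tcf3 to the right.

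The BMP pathway was followed from ligand to target in the same OPC libraries. Of 12 ligands of the BMP and TGFβ families tested, 3 were called higher and 4 lower. Bmp2 rose by 1.92 (SE 0.28, edgeR adjusted p = 0.00303), from 0.623 and 1.01 CPM to 2.89 and 3.31 CPM. Tgfb1 fell by 1.06 (SE 0.18, edgeR adjusted p = 0.00531). Bmp4, named for its change in the comparison of OLs with OPCs, measured 5.24 and 5.45 CPM in the control and 8.27 and 9.18 CPM with anti-miR-145, a rise of 0.69 (SE 0.13, edgeR adjusted p = 0.00808). The other called ligands went both ways and are named after their values were seen, except Bmp6. Bmp3 rose from 1.29 ± 0.16 to 2.93 ± 0.55 CPM (SD, n = 2), while Bmp7 fell from 6.51 and 6.57 CPM to 3.97 and 4.05 CPM, by 0.72 (SE 0.14, edgeR adjusted p = 0.00942), and Gdf15 fell by 0.98 (SE 0.18). Bmp6 was called lower, at 0.346 and 0.520 CPM in the control and 0.0251 and 0 CPM with the inhibitor. Of the 5 called BMP genes, 3 were thus higher and 2 lower in the libraries in which the Id genes were lower.

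Among 14 receptors and co-receptors tested in OPCs, 2 were called in each direction, led by Tgfbr3, a co-receptor, which rose by 1.32 (SE 0.14, edgeR adjusted p = 7.89e-04). None of the 5 SMAD genes tested was called by edgeR or DESeq2, 1 having an unadjusted p under 0.05 (Smad2, -0.25, SE 0.09, edgeR adjusted p = 0.0865). Of 19 inhibitors of the pathway, 6 were called lower and 1 higher, with a median of -0.15. Skil, a corepressor of SMADs, fell by 1.66 (SE 0.12, edgeR adjusted p = 1.66e-04), from 55.6 ± 4.34 to 17.8 ± 2.72 CPM (SD, n = 2), and Fst, which binds activins, fell by 1.86 (SE 0.34) from 1.31 ± 0.050 CPM (SD, n = 2). Of 5 other targets of BMP signalling, of which Smad6, Smad7 and Bambi are also among the inhibitors, 2 fell and 3 were not called. Atoh8 fell by 0.96 (SE 0.19, edgeR adjusted p = 0.00987) and Bambi, a pseudoreceptor, fell by 1.05 (SE 0.23, edgeR adjusted p = 0.0162). Smad7, an inhibitory SMAD and also a target, measured 5.94 ± 0.19 and 5.41 ± 0.12 CPM (SD, n = 2) and was not called.

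Other gene groups moved in the same OPC comparison. Of 14 cell cycle genes, 12 were called lower and none higher, with a median of -1.29, and Aurkb, a mitotic kinase, fell by 1.50 (SE 0.08, edgeR adjusted p = 7.48e-05). Among 10 astrocyte markers tested, 2 were called higher and 5 lower. Sox9 rose from 14.3 ± 0.55 to 79.8 ± 5.07 CPM and Gfap from 7.96 ± 0.23 to 46.5 ± 7.44 CPM (SD, n = 2). Slc1a3, among those called lower, fell by 1.06 (SE 0.11, edgeR adjusted p = 4.92e-04), from 387 ± 15.9 to 187 ± 25.5 CPM (SD, n = 2). The astrocyte list summed to 652 to 684 CPM in the control and to 485 to 538 CPM with the inhibitor, with at most 1 marker at 0 in a library. Of 5 neuronal markers, 3 were called higher and none lower (median 0.88), led by Nefm, a neurofilament gene, which rose from 7.45 ± 0.19 to 19.0 ± 2.59 CPM (SD, n = 2). Their sum was 62.7 to 64.9 CPM in the control and 75.8 to 84.2 CPM with the inhibitor. Of 12 OL markers, 2 were called in each direction. Myrf, a regulator of myelin genes, fell by 1.24 (SE 0.10, edgeR adjusted p = 2.03e-04). Cldn11 rose by 1.15 (SE 0.11, edgeR adjusted p = 4.44e-04), from 7.64 ± 0.58 to 17.1 ± 0.20 CPM (SD, n = 2). Microglial markers were called higher for 6 and lower for 5 of 12, and summed to 1056 to 1123 CPM in the control and 933 to 1166 CPM with the inhibitor. The part of these groups in the fall of the Id genes was not tested.

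The 2 scrambled controls were then compared, OLs against OPCs, to place the Id genes along differentiation. These groups differ in stage, medium, kind of oligonucleotide and time after transfection, which cannot be told apart. Id4 rose by 2.45 (SE 0.13, edgeR adjusted p = 1.34e-04), a 5.45-fold difference, and Id3 by 2.17 (SE 0.08, edgeR adjusted p = 6.22e-05), a 4.51-fold difference. Id2 rose by 0.86 (SE 0.20, edgeR adjusted p = 0.0159), or 1.82-fold, and its groups did not overlap. Id1 did not pass the test, with a difference of 0.24 (SE 0.17, ± 2 SE interval from -0.11 to 0.59, edgeR adjusted p = 0.291), and its groups overlapped. Of 15721 genes tested, 57.5% were called and 28.8% called higher, and groups were apart for 81.8% of genes, 41.7% in the higher direction. Id1 moved less than most genes, with 24.8% of genes at a smaller change, while Id4 exceeded 87.6%.

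The values of Id1 and Id2 rested on single libraries. Id1 was higher by 0.47 and called without miR-ctl replicate 2 (edgeR adjusted p = 9.94e-04), and stood at -0.012 without miR-ctl replicate 1. Id2 was not called without anti-miR-ctl replicate 1 or 2 (edgeR adjusted p = 0.0981 and 0.0982), with log2 fold changes of 0.84 in both cases. Id3 and Id4 were called in every fit that left out 1 of the 4 libraries.

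Along the pathway, Bmp4 went from 5.24 and 5.45 CPM in control OPCs to 354 and 233 CPM in miR-ctl OLs, a rise of 5.77 (SE 0.25, edgeR adjusted p = 8.14e-05). Tgfb2 rose by 2.40 (SE 0.13) and Gdf11 by 1.15 (SE 0.07), and of 12 ligands tested 5 were called higher and 4 lower. Receptors were called higher for 7 and lower for 3 of 14. The type I BMP receptor gene Bmpr1b rose from 0.184 ± 0.066 to 7.63 ± 0.88 CPM (SD, n = 2), and Rgma, a BMP co-receptor, from 10.6 ± 0.020 to 62.8 ± 6.58 CPM (SD, n = 2). Of 6 other BMP targets, 4 were called higher and none lower, with a median of 1.79. Smad7 rose by 2.47 (SE 0.14, edgeR adjusted p = 1.49e-04) and Msx2, a homeobox gene, by 4.06 (SE 0.37) from 0.101 ± 0.012 CPM (SD, n = 2). Of the inhibitors, 8 of 19 were called higher and 7 lower, led by Nbl1, which rose by 1.73 (SE 0.08), and Crim1, which fell by 1.83 (SE 0.09).

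The Id partners were split in this comparison. Tcf3 fell by 0.61 (SE 0.08, edgeR adjusted p = 0.00186) and Tcf4 rose by 0.49 (SE 0.16, edgeR adjusted p = 0.0447), while Tcf12 differed by -0.29 (SE 0.13) and was not called. Of 12 tissue bHLH genes, 7 were called lower and 4 higher. Olig1 fell by 1.33 (SE 0.08, edgeR adjusted p = 1.90e-04). Bhlhe22 rose by 2.84 (SE 0.34) and stayed at 1.47 ± 0.13 CPM (SD, n = 2) in OLs. Of the Hes, Hey and Bhlhe genes, 3 of 8 rose and 1 fell, led by Bhlhe40, with 31.5 ± 5.90 CPM in OLs and 9.15 ± 0.44 CPM in OPCs (SD, n = 2).

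All 14 cell cycle genes were called lower in OLs (median -3.50), 10 of 12 OL markers were called higher (median 3.20) and 10 of 11 astrocyte markers were called higher (median 2.69). The astrocyte list summed to 5494 to 6549 CPM in the miR-ctl OLs, with no marker at 0. Aqp4, an astrocyte water channel, stood at 168 and 186 CPM there and at 0.323 and 0.164 CPM in control OPCs. How much of the rise of Id2, Id3 and Id4 came from cells with these astrocyte markers was not tested.

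In OLs the mimic of miR-145 was compared with miR-ctl. Without a term for the replicate number, none of the Id genes passed the test in edgeR or DESeq2 or had an unadjusted p under 0.05 in edgeR, and edgeR called none of 15461 genes (0%), with 2067 at an unadjusted p under 0.05 and 649 called by DESeq2. With such a term, Id2 and Id4 were called higher, as given in the section on processing. The labels do not say that libraries of the same number share a culture. Id4 differed most, at 0.67 (SE 0.27, ± 2 SE interval from 0.13 to 1.20, edgeR adjusted p = 0.375), with both miR-145 libraries above both controls. Groups did not overlap for 47.3% of genes in this comparison. Id2 differed by 0.45 (SE 0.30, interval from -0.15 to 1.05), Id1 by 0.12 (SE 0.18, interval from -0.25 to 0.49) and Id3 by -0.10 (SE 0.15, interval from -0.40 to 0.20), and the groups of all 3 overlapped. These intervals leave room for a difference of more than 1 on the log2 scale for Id2 and Id4. Without miR-145 replicate 1, Id4 differed by 0.22 and Id2 by 0.044.

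Of the Id partners and the BMP pathway with miR-145, Tcf12 differed by -0.36 (SE 0.15), Tcf4 by 0.09 (SE 0.17) and Tcf3 by -0.02 (SE 0.11). Bmp4 measured 202 and 143 CPM with miR-145 and 354 and 233 CPM with miR-ctl, a difference of -0.76 (SE 0.26, edgeR adjusted p = 0.320). Bmpr1b measured 20.7 and 14.8 CPM with miR-145 and 7.00 and 8.25 CPM with miR-ctl, a difference of 1.23 (SE 0.22, edgeR adjusted p = 0.164). Of 6 other BMP targets tested, 2 were higher and 4 lower, with a median of -0.16. Msx1 and Msx2 differed by 0.95 (SE 0.40) and 0.62 (SE 0.28), and Smad6 and Smad7 by -0.36 (SE 0.28) and -0.32 (SE 0.18). None of these was called by edgeR, and DESeq2 called 2 of the 14 receptors tested. The lower ligand and higher receptor values had no overlap between groups. All 5 SMAD genes tested were lower (median -0.17), with none called by edgeR or DESeq2. Of 18 inhibitors of the pathway, 8 were higher and 10 lower, with none called by edgeR and 1 called in each direction by DESeq2. Nbl1 differed by 1.12 (SE 0.16, edgeR adjusted p = 0.158) and Skil by -0.58 (SE 0.13, edgeR adjusted p = 0.186). All 11 astrocyte markers were higher with miR-145, by a median of 0.88, with none called by edgeR (8 at an unadjusted p under 0.05) and 6 by DESeq2, and summed to 9202 to 13512 CPM against 5494 to 6549 CPM in the control. The shift was not limited to astrocyte markers. All 12 microglial markers (median 0.67) and all 5 mural and fibroblast markers tested (median 1.15) were also higher, with none called by edgeR. OL markers were higher for 5 and lower for 7 of 12. The part of any of these markers in the Id2 and Id4 values was not tested.

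With both mimics, tested against the same miR-ctl libraries, no Id gene was called by edgeR or DESeq2 or had an unadjusted p under 0.05 in edgeR. EdgeR called none of 15436 genes (0%), with 956 at an unadjusted p under 0.05 and 106 called by DESeq2. Id4 differed by 0.51 (SE 0.25, interval from -0.0005 to 1.01, edgeR adjusted p = 0.814) and Id3 by 0.20 (SE 0.13, interval from -0.06 to 0.45), both with groups apart, as was the case for 36.8% of genes. Id2 differed by 0.18 (SE 0.32, interval from -0.46 to 0.83) and Id1 by -0.08 (SE 0.20, interval from -0.49 to 0.33). Bmp4 measured 190 and 178 CPM with both mimics, a difference of -0.67 (SE 0.22, edgeR adjusted p = 0.800). Bmpr1b measured 19.2 and 10.5 CPM, a difference of 0.97 (SE 0.32, edgeR adjusted p = 0.800). Astrocyte markers were higher for 10 and lower for 1 of 11 (median 0.54). OL markers were higher for 8 and lower for 4 of 12 (median 0.26). EdgeR called none of these markers, while DESeq2 called 2 astrocyte markers higher. Their part in the Id values was not tested.

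What the miR-219 mimic added was tested between the mimic groups, and again no Id gene was called by edgeR or DESeq2 or had an unadjusted p under 0.05 in edgeR. EdgeR called none of 15501 genes (0%), with 228 at an unadjusted p under 0.05 and 9 called by DESeq2, and groups were apart for 24.8% of genes. Id1 was apart, at 33.0 and 27.5 CPM with both mimics against 35.9 and 33.4 CPM with miR-145, a difference of -0.20 (SE 0.13, interval from -0.47 to 0.06). Id3 differed by 0.28 (SE 0.18), Id2 by -0.27 (SE 0.35) and Id4 by -0.17 (SE 0.36), all with overlapping groups. All 12 OL markers were higher with both mimics than with miR-145 (median 0.35). All 11 astrocyte markers (median -0.32) and all 12 microglial markers (median -0.45) were lower. None of these markers was called by edgeR or DESeq2, and their part in the Id values was not tested.

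Id2 and Id4 also varied between the replicates of an OL group. Id2 was 1.52, 1.65 and 1.70 times as high in replicate 1 as in replicate 2 of miR-ctl, miR-145 and miR-145+miR-219. Id4 gave ratios of 0.91, 1.75 and 1.66 in the same order, and Id3 ratios of 0.97, 0.78 and 0.83. The markers of the cultures differed between the same libraries. Replicate 1 of each OL group had the lower OL marker sum, 16148 to 20073 CPM against 25919 to 35554 CPM in replicate 2, and the higher astrocyte marker sum within its group.

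Across the 6 OL libraries, which hold 3 treatments and share replicate numbers, log2 levels of Id4 followed the astrocyte marker sum (Pearson r = 0.92, Spearman rho = 0.94), as did those of Id2 (r = 0.87, rho = 0.83). Id3 had r = -0.57 with that sum and r = 0.79 (rho = 0.83) with the OL marker sum. Id1 and Id2 ran opposite to the OL marker sum, with r = -0.93 for each. With the OPC marker sum, r was 0.90 for Id2 (rho = 0.83), 0.91 for Id1 (rho = 0.66), 0.55 for Id4 and -0.55 for Id3. Without the 2 libraries farthest from the median marker sum, r was 0.64 for Id4 and 0.45 for Id2 with astrocyte markers, and 0.76 for Id3, -0.72 for Id1 and -0.81 for Id2 with OL markers. With OPC markers it was then 0.63 for Id2 and 0.21 for Id1. All these sums come from the same libraries as the Id levels and from lists chosen with earlier results known, so these values describe the libraries only.

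**Figure D4:**
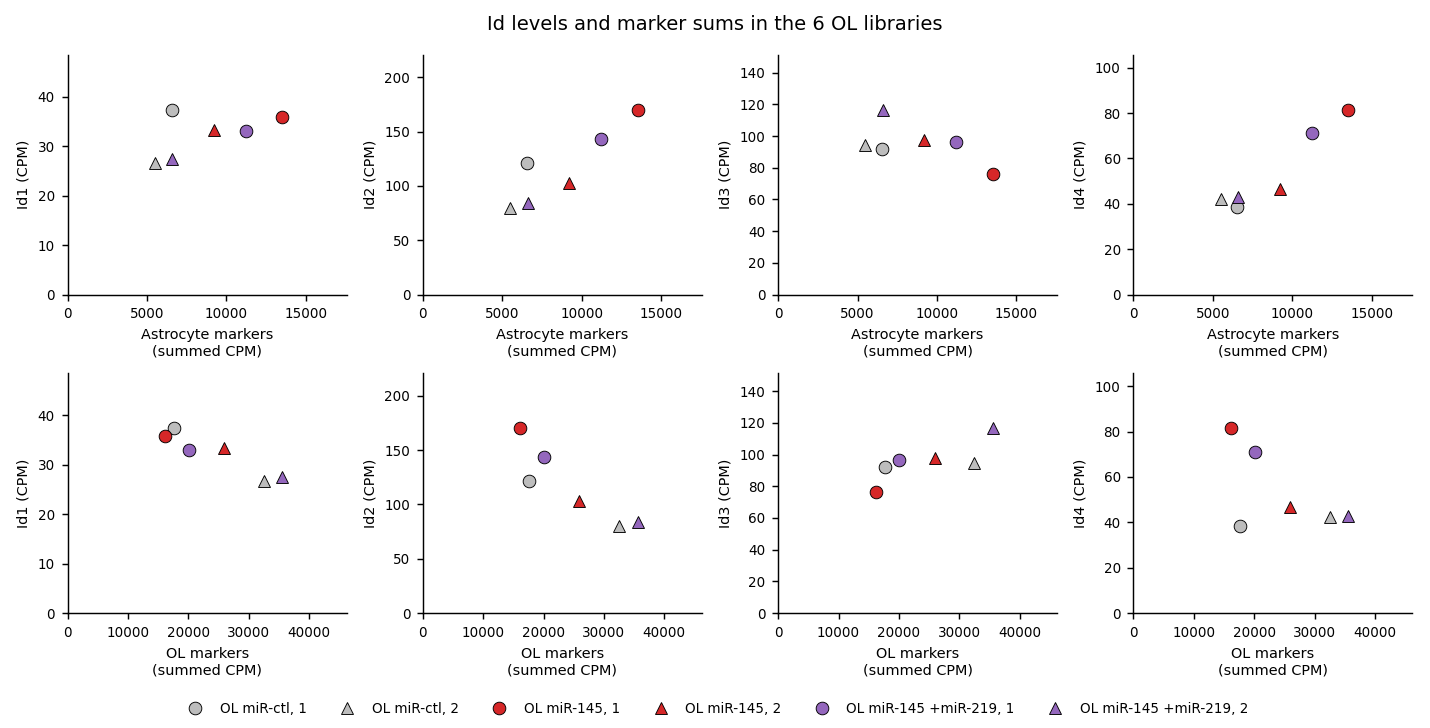
Level of each Id gene in CPM (y axes, from 0) against the summed CPM of 11 astrocyte markers (upper row) or 12 OL markers (lower row) (x axes), in the 6 OL libraries (colours are groups, circles and triangles replicates 1 and 2). Id4 reaches 81.3 and 71.2 CPM in the 2 libraries with the highest astrocyte sums, 13512 and 11214 CPM, and Id3 is highest, at 116 CPM, in the library with the highest OL marker sum.

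The genes whose levels followed each Id gene most closely were found by Pearson correlation of log2(CPM + 1) over the 10 libraries, among 9261 genes with a symbol and a mean of at least 10 CPM. The points share their libraries and fall into OPC and OL groups, so these values are a description. For Id1 these were Slc11a2 (r = 0.99), a metal ion transporter, Optn (r = 0.99), an autophagy receptor, and Plekhb1 (r = 0.98). Slc11a2 had 106 CPM in control OPCs, 64.8 CPM with anti-miR-145 and 110 to 122 CPM in the OL group means and was thus, like Id1, lowest with anti-miR-145. For Id2 they were Appl2, Atp6v1g2 and Gng4 (each r = 0.99), for Id3 the FGF receptor gene Fgfr2, Plekhg3 and Eps15 (each r = 1.00 after rounding), and for Id4 Cpt2, Ndrg2 and Tmem229a (each r = 1.00 after rounding). Within the 6 OL libraries alone, r ranged from 0.95 to 1.00 for the genes listed with Id2, from 0.75 to 0.86 with Id3, from 0.95 to 0.97 with Id4 and from 0.30 to 0.84 with Id1.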

How the data were processed

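RNA of primary rat OPCs and OLs was sequenced from stranded mRNA libraries. The authors assigned reads to GENCODE Rnor6.0 transcripts with Salmon 0.12.0 and loaded them with tximport. The deposited values are estimated counts of 23487 genes without normalization. From a further table, which holds fold changes and p-values of the authors' DESeq2 comparison of OL miR-145 with miR-ctl, gene symbols alone were used. It names 14561 genes, and the 266 symbols on more than 1 gene ID are uncertain and were left out of list counts.

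Counts were rounded. Each comparison was fitted on its 4 libraries with edgeR 4.0.16 (glmQLFit and glmQLFTest, TMM) in R 4.3.3. Genes needed 5 or more counts in 2 or more of these libraries and were called at a two-sided Benjamini-Hochberg adjusted p under 0.05 over all genes tested. The SE is the log2 fold change divided by the square root of F. The alternatives were DESeq2 1.42.0, its size factors in edgeR, 3 other count filters, all 5 groups in 1 fit, a replicate block, each library left out, other scalings of the levels, and Spearman correlation. Functions were tested on simulated counts. Figures were drawn with matplotlib 3.10.9.

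Members and lists were chosen with earlier results of these data known. The genes named are the 4 members, each E protein, up to 3 genes of a list with the smallest p among those called (or up to 2 where none was), markers of summed lists, and the 3 genes most like each member, apart from items that are not reported here. Each group has 2 libraries, of 33505706 to 42684206 counts.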

Additional observations from a re-analysis of the deposited data

How the results depend on the processing

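Over the 20 log2 fold changes of the 4 genes in 5 comparisons, 202 of the alternative values kept direction and side of the threshold, 8 lost the call, 3 gained one and 11 changed sign. With all 5 groups in 1 fit, the OPC comparison called 2553 genes and 2 of the 4 Id genes, with Id2 at -0.39 and Id4 at -0.75 not called, and the miR-145 comparison called 32 genes. DESeq2 called 649 genes with miR-145, 106 with both mimics and 9 between the mimic groups, and no filter on low counts gave 1 with both mimics, while no Id gene was called in these fits of OL groups. The cause of these differences was not tested.

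Labels give the replicates numbers, which pair the groups by number alone: same-numbered deviations correlated at 0.40, 0.47 and 0.63 among the OL comparisons, -0.15 in OPCs and 0.07 between the controls. With a replicate block, 2272 genes were called with miR-145, including 2 of the Id genes (Id2 at 0.43, Id4 at 0.62, edgeR adjusted p = 0.00657 and 1.83e-04), 132 with both mimics and 184 between the mimic groups. The replicate block changed no other Id call. With crossed replicate numbers in OPCs, chosen after seeing the data, 5536 genes were called and all 4 Id genes.

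With 1 library left out, the lone library was assumed to vary like the other group. Genes called in the OPC comparison ranged from 2348 to 7133 and Id genes called from 1 to 4, with Id2 at -0.49 to -0.33, Id3 at -0.71 to -0.43 and Id4 at -0.91 to -0.65. The lowest counts came without anti-miR-ctl replicate 1 (2348) and 2 (2407) and the highest without anti-miR-145 replicate 2. Between the controls, 4780 to 10306 genes and 2 to 4 Id genes were called, with the lowest without anti-miR-ctl replicate 1 (4842) or 2 (4780), Id1 at -0.012 to 0.47 and Id2 at 0.54 to 1.14. With miR-145, Id1 ran from -0.11 (without miR-ctl replicate 2) to 0.39 and Id3 from -0.29 to 0.075 (without miR-145 replicate 1). With both mimics, Id1 ran from -0.30 to 0.19, with 0.045 without replicate 2 of both mimics, and Id2 from -0.25 to 0.52, with -0.092 without miR-ctl replicate 2. Between the mimic groups, Id2 ran from -0.70 to 0.13 and Id4 from -0.58 to 0.28, with 0.066 and 0.15 without replicate 2 of both mimics. With library totals in place of TMM, levels in anti-miR-ctl OPCs were higher (Id2 59.1 instead of 54.9 CPM, Id1 28.9 instead of 26.9 CPM, Id3 22.1 instead of 20.5 CPM), more than the replicate SD. The ratio of the highest to the lowest group of each Id gene moved by less than the SD with either other scaling. None of the 3 genes listed with each Id gene was among its 3 most alike by Spearman correlation.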
